A study of Homo sapiens with 6 samples.

Results

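The genes described here are 10 imprinted genes at 8 chromosomal loci: PEG3, ZIM2, MEST, PEG10, SGCE, PLAGL1, NNAT, GRB10, GNAS and IGF2R. They were taken by name from the 23228 genes of the count tables, and 9 of the 10 had enough reads for testing among 14537 tested genes. RNA was sequenced from Hep3B, an established human hepatocellular carcinoma cell line. There were 3 control libraries, from cells that received a lentivirus with a non-targeted shRNA, and 3 libraries labelled PELP1-KD, from cells that received shRNA against PELP1. PELP1 encodes a coregulator of nuclear receptors that also takes part in ribosome assembly. The PELP1-KD cells were stably transduced, selected with puromycin and kept as pooled clones. The sample titles carry the name of the first shRNA, whereas the protocol names both that were used, so which hairpins the libraries carry is not settled here. No source states that the replicates came from separate cultures, and p-values then measure only the spread between these libraries.

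An imprinted gene is expressed mainly from the copy inherited from one parent. The copies are told apart by DNA methylation that is set in the germ line at control regions and kept in the embryo, for which zinc finger proteins such as ZFP57 are needed. Imprinted genes are known for roles in fetal growth, placenta and metabolism, and several are silent in adult liver and expressed again in liver tumours. PEG3, ZIM2, MEST, PEG10, SGCE, PLAGL1 and NNAT are known as genes of the paternal copy. GRB10 and GNAS use the maternal, the paternal or both copies depending on promoter and tissue, and IGF2R is maternal in mice and mostly expressed from both copies in humans. These libraries give the RNA of a gene summed over both copies and over all of its promoters.

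Of the 9 tested genes, 5 were lower in the PELP1-KD libraries at an adjusted p below 0.05 (edgeR's quasi-likelihood test, adjusted over all tested genes), and 0 were higher. The background is large in this comparison, since 26.7% of all tested genes were called lower and 26.8% higher. PEG3, ZIM2 and MEST fell by more than 2-fold, as did 4.79% of all tested genes, and 0 of the 9 rose by as much, as did 2.85% of all tested genes. PEG10 and GNAS fell by less than 2-fold. SGCE, IGF2R, GRB10 and PLAGL1 did not pass the test. The median log2 fold change of the 9 genes was -0.15, beside 0.00 for all tested genes. All 4 of the genes called lower besides GNAS belong to the 6 tested genes of the paternal copy, whose median was -1.23. That median counts both PEG3 and ZIM2, which share exon bases and may not be separate results. Of the rest, MEST was at -2.22, PEG10 at -0.24, SGCE at -0.00 and PLAGL1 at 0.11. NNAT had 0 reads in all 6 libraries.

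A library held 26758363 to 34456542 reads on genes. Values are given as normalized reads, which are reads scaled to a common library size. PELP1 itself, the targeted gene, had 4893, 4914 and 5102 normalized reads in the control and 4421, 4825 and 4840 in the PELP1-KD libraries. The groups did not overlap, but the level in the PELP1-KD libraries was still 94.5% of the control (log2 fold change -0.08, SE 0.04, adjusted p = 0.101, and 0.0106 with the replicate number as a block). Its RNA therefore does not check the labels by much, and the libraries are called PELP1-KD because their labels say so. Replicate 3 of both groups stood apart from replicates 1 and 2, since the chi-square over its degrees of freedom was 7.07 between PELP1-KD replicates 1 and 3 and 2.20 between 1 and 2. As for the cell type, 7 of 7 hepatoma markers were present at a summed 8119 to 9005 RPKM (reads per kilobase of exon and per 1e6 reads), ALB and AFP included. The 7 markers of blood, endothelial and stromal cells summed to between 3.38 and 4.21 RPKM in the control and between 2.17 and 2.35 in the PELP1-KD libraries, and 0 of them were at 0 in all libraries. CD14 carried most of that sum, at 3.10 and 1.57 RPKM, and was called lower (log2 fold change -0.98, adjusted p = 3.31e-06), while PECAM1 (-0.09) and COL3A1 (-0.07) did not pass the test and the other 4 had too few reads to be tested. Their part in the results was not tested.

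Levels can be compared between genes per exon length. In the control libraries PEG10 had the highest level at 341 ± 1.07 RPKM (SD, n = 3), above 98.6% of the tested genes, followed by GNAS at 197 ± 3.91. SGCE (36.7), IGF2R (31.9) and GRB10 (15.4) followed, then MEST (8.86), PLAGL1 (6.06), PEG3 (1.55) and ZIM2 (0.770). PEG3 lay above 15.2% and ZIM2 above 9.31% of the tested genes, so both were weakly expressed even in the control. No neighbours in this order overlapped between libraries. In the PELP1-KD libraries MEST, at 1.91 RPKM, stood below PLAGL1 at 6.54. PEG3 (0.0952) and ZIM2 (0.0531) overlapped each other there, and the rest of the order was the same.

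**Figure D1:**
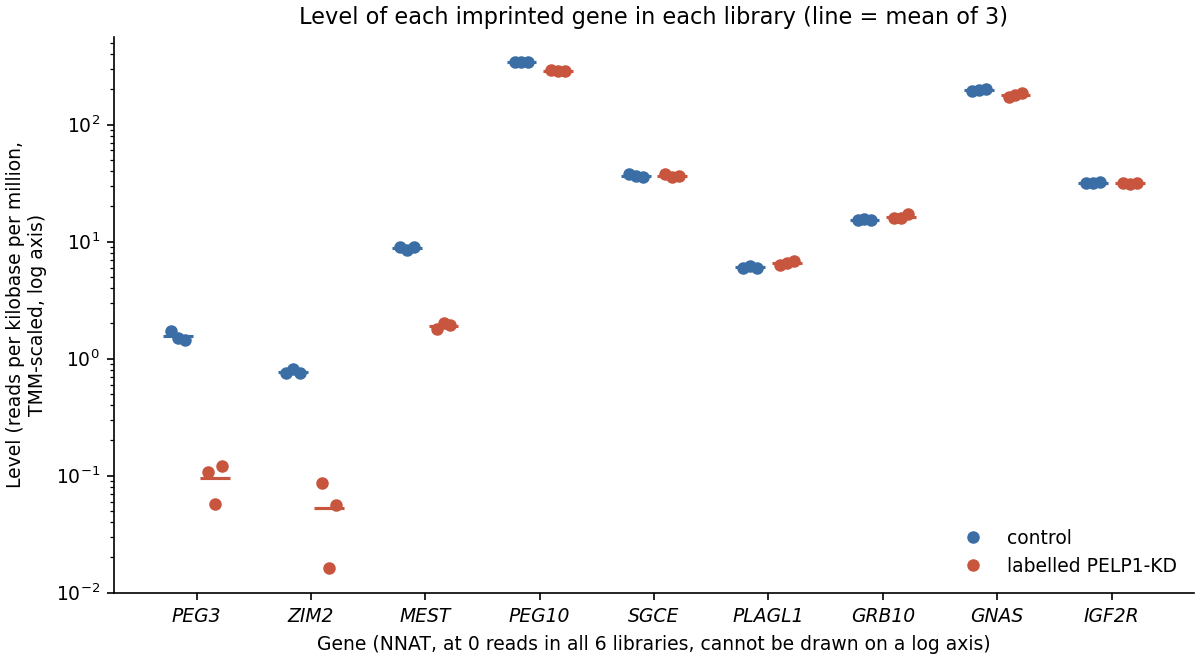
Level of 9 imprinted genes in each of the 6 libraries, in reads per kilobase of exon and per 1e6 reads on a log axis. Points are libraries, lines are means of 3, blue is control and red is PELP1-KD. PEG3, ZIM2 and MEST lie far lower in red, while each of the other 6 genes differs by less than 2-fold.

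PEG3 encodes a large zinc finger protein that acts in growth and in maternal behaviour in mice. It lies at chr19:57321445-57352094 of hg19, on the minus strand. Raw reads on PEG3 numbered 532, 441 and 427 in the control, against 30, 14 and 34 in the PELP1-KD libraries. Every PELP1-KD library was thus far below every control library. In bulk RNA, fewer cells that express a gene and less RNA per cell cannot be told apart. In normalized reads the mean fell from 439 ± 42.7 (SD, n = 3) to 27.0 ± 9.38 (SD, n = 3), which is 6.15% of the control. The log2 fold change was -3.99 (SE 0.15, 95% interval -4.42 to -3.57, adjusted p = 2.97e-14), and it lay between -4.19 and -3.76 when each library was left out in turn. By fold change PEG3 was number 58 from the lowest of the 14537 tested genes.

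ZIM2 encodes another zinc finger protein and is transcribed from the same strand as PEG3 (chr19:57285923-57352097). Its reads were few, with 58, 60 and 56 in the control and 6, 1 and 4 in the PELP1-KD libraries. The mean fell from 54.7 ± 2.44 to 3.77 ± 2.50 normalized reads (log2 fold change -3.78, SE 0.35, adjusted p = 1.82e-08). The groups did not overlap, and leaving out a library gave values between -4.28 and -3.40. The exons of the gene models share 937 bases, which are 10.4% of the exon bases of PEG3 and 41.5% of those of ZIM2. The values of both genes were whole numbers in all 6 libraries, although the counting allowed fractions, so a sharing of single reads between them is not seen in the values.

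The reads of PEG3, spread evenly over its exons, would place 55.2, 45.8 and 44.3 reads on the shared bases in the control libraries. ZIM2 was counted at 58, 60 and 56 reads there. In the PELP1-KD libraries the same calculation gives 3.11, 1.45 and 3.53 reads, where ZIM2 was counted at 6, 1 and 4. This calculation gives each read on the shared bases a whole count on ZIM2, whereas counting in fractions would give only a part of it. The reads on ZIM2 were thus near the size that the shared bases could hold only if such reads were counted whole. How many of them are RNA of ZIM2 itself was not tested and is not settled by these counts. The log2 ratio of PEG3 to ZIM2 reads was 3.20, 2.88 and 2.93 in the control and 2.32, 3.81 and 3.09 in the PELP1-KD libraries, and the groups overlapped (difference 0.07, two-sided exact permutation p = 0.8). The fall of ZIM2 is thus not counted on reads known to be its own.

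**Figure D2:**
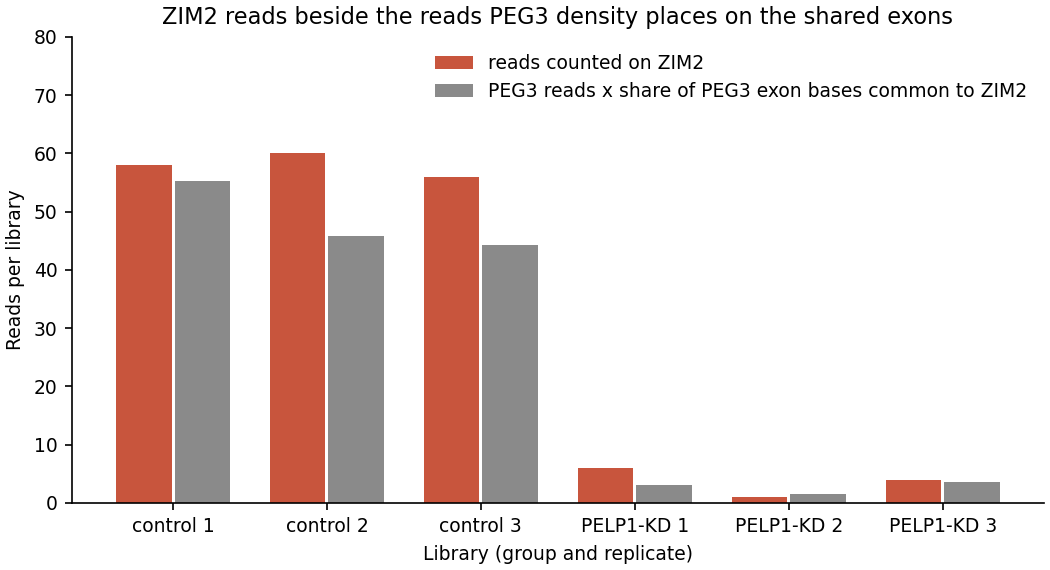
Reads counted on ZIM2 (red) in each library, beside the reads of PEG3 multiplied by the share of its exon bases that lie in ZIM2 exons (grey). The bars stand between 44.3 and 60 reads in the control and between 1 and 6 in the PELP1-KD libraries.

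MEST, also known as PEG1, encodes an enzyme of the alpha/beta-hydrolase fold and is known for roles in fetal growth and fat storage. It lies at chr7:130126046-130146131 on the plus strand. MEST had 796, 749.5 and 798 normalized reads in the control and 157, 177 and 171 in the PELP1-KD libraries. The spread within each group was small beside the gap between them. The mean fell from 781 ± 27.5 to 168 ± 10.6, which is 21.5% of the control (log2 fold change -2.22, SE 0.08, adjusted p = 7.80e-15). The fold was 0.215 with a 95% interval of 0.185 to 0.250. Without any single library the value stayed between -2.25 and -2.17. The values of MEST were whole numbers in all libraries, and 52 of its exon bases are shared with COPG2 on the opposite strand, which the counting by strand separates.

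MEST and PLAGL1 each have several start sites, and the count tables do not separate transcripts by their start. The sequences at 3 of these starts are shown because the imprinted promoters of both genes are known as CpG-rich. Each window holds 250 bases before and 50 bases after the start, as RefSeq places it on GRCh38.p14, and was found by exact match in hg19. CpG dinucleotides, the sites of DNA methylation, are in capitals. The set of RefSeq windows at hand held 5 of the 10 genes (MEST, PLAGL1, GRB10, GNAS and IGF2R). It held none for PEG3, ZIM2, PEG10, SGCE and NNAT, whose starts were therefore not searched.
MEST first upstream start, chr7:130125766-130126065, plus strand: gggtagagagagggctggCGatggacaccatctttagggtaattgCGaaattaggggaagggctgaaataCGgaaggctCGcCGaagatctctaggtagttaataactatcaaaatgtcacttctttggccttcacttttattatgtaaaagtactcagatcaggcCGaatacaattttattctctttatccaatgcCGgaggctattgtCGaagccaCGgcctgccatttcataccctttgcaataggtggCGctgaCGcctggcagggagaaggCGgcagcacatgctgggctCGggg
MEST downstream start, chr7:130131676-130131975, plus strand: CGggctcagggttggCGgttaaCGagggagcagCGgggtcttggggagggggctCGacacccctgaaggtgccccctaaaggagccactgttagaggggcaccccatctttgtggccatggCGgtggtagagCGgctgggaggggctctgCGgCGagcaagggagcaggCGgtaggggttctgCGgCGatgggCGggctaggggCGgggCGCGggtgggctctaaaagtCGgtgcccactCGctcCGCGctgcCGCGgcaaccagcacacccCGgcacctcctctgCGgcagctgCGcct
PLAGL1 start, chr6:144329347-144329646, minus strand: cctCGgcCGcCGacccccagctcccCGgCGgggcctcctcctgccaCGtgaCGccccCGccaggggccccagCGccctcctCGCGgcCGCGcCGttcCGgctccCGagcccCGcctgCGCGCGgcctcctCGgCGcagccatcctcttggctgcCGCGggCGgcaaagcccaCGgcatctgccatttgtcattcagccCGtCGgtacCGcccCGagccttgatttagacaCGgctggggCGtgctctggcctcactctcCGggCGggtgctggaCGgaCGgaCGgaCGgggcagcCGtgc

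RefSeq has 5 windows for each of these genes, and the counts below hold for the 3 printed windows, with the others given after them. The first upstream window of MEST holds 13 CpG, more than 48.3% of all 35116 RefSeq windows, whose median is 14. The downstream window of MEST holds 25 CpG (more than 68% of windows) and the PLAGL1 window 39 (more than 91.3%). The ZFP57 motif TGCCGC, searched on both strands, has 1 match in the first upstream and 3 in the downstream window of MEST, and 2 in that of PLAGL1. It has a match in 16.7% of all windows. The YY1 motif CCATNTT, in which N is any base, has 1 match in each printed MEST window and 0 in the printed one of PLAGL1, and a match in 15.6% of all windows. The 3 MEST windows not printed hold 22, 16 and 22 CpG, with 1, 0 and 2 matches of TGCCGC and 1, 0 and 1 of CCATNTT. The 4 PLAGL1 windows not printed hold 2, 3, 3 and 31 CpG, with 0 matches of TGCCGC in each and, in that order of CpG, 2, 2, 0 and 0 of CCATNTT. The printed PLAGL1 window is thus the richest in CpG of its 5, and windows of both genes vary too much for a contrast between the genes to be read from them. These matches describe the letters only, and no methylation or binding was measured.

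PEG10 and SGCE face each other head to head on chromosome 7 and share a control region between their starts. PEG10 derives from the gag and pol genes of a retrotransposon, acts in placenta and is known to be high in hepatocellular carcinoma. It lies at chr7:94285637-94299006 on the plus strand. The values of PEG10 held fractions in all 6 libraries before rounding, so they include reads that matched several places or genes. The share of such reads was not tested. PEG10 had 71338, 70891 and 71114 normalized reads in the control and 60951, 59841 and 59470 in the PELP1-KD libraries. The groups did not overlap and each was tight, so that a fall to 84.5% of the control passed the test (log2 fold change -0.24, SE 0.03, 95% interval -0.32 to -0.17, adjusted p = 1.82e-07).

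SGCE encodes epsilon-sarcoglycan, a membrane protein whose loss on the paternal copy is a cause of myoclonus-dystonia. It lies at chr7:94214536-94285521 on the minus strand. SGCE had 2146, 2072 and 2037 normalized reads in the control and 2150, 2043 and 2052 in the PELP1-KD libraries. The groups overlapped, with a log2 fold change of -0.00 (SE 0.04, 95% interval -0.12 to 0.12, adjusted p = 0.967). The ratio of PEG10 to SGCE reads within a library, which does not depend on scaling, was 33.2, 34.2 and 34.9 in the control and 28.4, 29.3 and 29.0 in the PELP1-KD libraries. The groups did not overlap, and the log2 ratio fell from 5.09 ± 0.04 to 4.85 ± 0.02. The two-sided exact permutation p was 0.1, which is the smallest that 3 libraries against 3 can give.

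PLAGL1, also known as ZAC1, encodes a zinc finger transcription factor that restrains the cell cycle, and its overexpression is tied to transient neonatal diabetes. It lies at chr6:144261437-144385735 on the minus strand, and 8.73% of its exon bases lie in the non-coding gene HYMAI. PLAGL1 had 677, 703 and 680.1 normalized reads in the control and 708, 748 and 767 in the PELP1-KD libraries. All 3 PELP1-KD libraries were above the control, yet the difference was not called (log2 fold change 0.11, SE 0.06, 95% interval -0.06 to 0.27, adjusted p = 0.129).

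NNAT encodes neuronatin, a small membrane protein of the endoplasmic reticulum that binds the calcium pump. It lies at chr20:36149607-36152090 on the plus strand, within BLCAP on the opposite strand. NNAT had 0 reads in each library. A count of 0 allows up to 3 reads, or between 0.0871 and 0.112 CPM (reads scaled to a total of 1e6), so expression was not detectable at this depth.

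GRB10 encodes an adaptor that binds the insulin and IGF1 receptors and damps their signal. It lies at chr7:50657760-50861159 on the minus strand. GRB10 had 2514, 2594 and 2531 normalized reads in the control and 2624, 2632 and 2829 in the PELP1-KD libraries. All 3 PELP1-KD libraries were above the control, replicate 3 the most. The log2 fold change of 0.08 was not called (SE 0.04, 95% interval -0.04 to 0.20, adjusted p = 0.112). With the replicate number as a block GRB10 was called higher at the same log2 fold change of 0.08 (adjusted p = 0.0325), in a fit in which 30.4% of all tested genes were called higher.

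GNAS encodes the alpha subunit of the stimulatory G protein, which couples receptors to cAMP, and has further promoters for other products. It lies at chr20:57414795-57486250 on the plus strand. GNAS had 34392, 34806 and 35743 normalized reads in the control and 30158, 31520 and 32733 in the PELP1-KD libraries. The groups did not overlap, and the level fell to 90.0% of the control (log2 fold change -0.15, SE 0.03, 95% interval -0.24 to -0.06, adjusted p = 5.21e-04). The products of the different promoters are summed in this count. Like those of PEG10, the values of GNAS held fractions in all 6 libraries before rounding, and the share of such reads was not tested.

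IGF2R encodes the receptor for mannose 6-phosphate that carries enzymes to lysosomes and takes IGF2 into the cell for breakdown. It lies at chr6:160390131-160527583 on the plus strand. IGF2R had 9069, 9081 and 9174 normalized reads in the control and 9065, 8867 and 8994 in the PELP1-KD libraries. The PELP1-KD libraries were lower without overlap, the narrowest gap being 9065 against 9069, and the difference was not called (log2 fold change -0.02, SE 0.03, 95% interval -0.11 to 0.07, adjusted p = 0.600). The groups did not overlap in 8 of the 9 tested genes (6 with PELP1-KD below and 2 above the control), beside 58.8% of all tested genes.

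**Figure D3:**
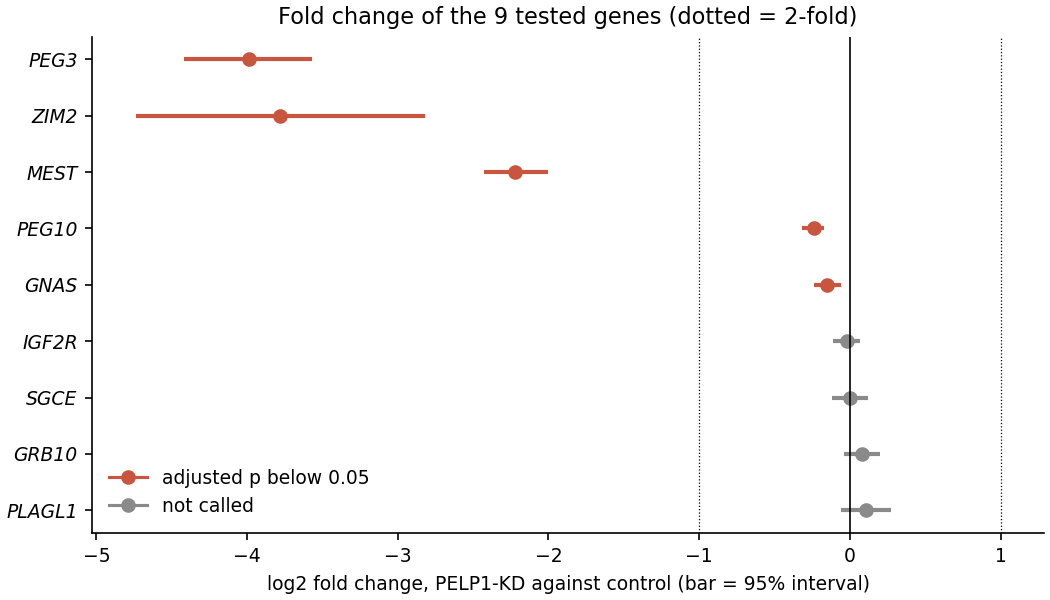
Log2 fold change of each tested gene, PELP1-KD against control, with its 95% interval. Red genes have an adjusted p below 0.05, grey genes were not called, and dotted lines mark a 2-fold change. PEG3, ZIM2 and MEST lie left of the dotted line at -1, and the other 6 lie between -0.24 and 0.11.

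Genes within 500 kb of the 10 genes were then examined. There were 105 such neighbours, of which 68 were tested. Of these, 16 were lower and 10 higher, 5 were lower by at least 2-fold and 0 were higher by as much, and their median log2 fold change was -0.00. The shares called in the whole table are given above. At the locus of PEG3 and ZIM2, 5 of 16 tested neighbours were lower, 4 of them by at least 2-fold, and 1 was higher. All 5 that fell lie on the side of the lower coordinates, among 11 tested genes there. Of the 5 tested genes on the other side, 0 were lower and 1 was higher.

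The genes that fell beside PEG3 include ZNF835, ZNF667, ZNF471 and ZFP28, which encode zinc finger proteins. ZNF835, the nearest tested neighbour on that side at 138 kb from PEG3, fell from 60.8 ± 14.3 to 6.43 ± 5.42 normalized reads (log2 fold change -3.16, SE 0.37, adjusted p = 5.04e-07). Its reads were 56, 56 and 81 in the control and 6, 1 and 12 in the PELP1-KD libraries, without overlap. ZNF667 (77.4 to 12.5 normalized reads, -2.60), ZNF471 (34.8 to 5.72, -2.60) and LOC100128252 (220.1 to 83.6, -1.39) fell by more than 2-fold as well. ZFP28 fell from 118 to 63.0 (-0.90), a gene picked out once its values were known. On the other side the nearest tested gene, ZNF264 at 351 kb, had 306 ± 22.7 and 323 ± 51.2 normalized reads (log2 fold change 0.08, adjusted p = 0.506). The gene called higher there was ZNF805, likewise picked once its values were known (0.26, adjusted p = 0.0457, with overlap of the groups). Most of these genes have few reads, and with a minimum of 10 reads in every library the number of neighbours of all loci called lower by at least 2-fold was 2 in place of 5.

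At the other 7 loci 52 neighbours were tested. There 11 were lower and 9 higher, and 1 was lower by at least 2-fold. That gene was SLC22A3, a transporter of organic cations that is imprinted in mouse placenta together with Igf2r. It lies 242 kb from IGF2R and fell from 475 ± 27.2 to 189.7 ± 19.2 normalized reads (log2 fold change -1.32, SE 0.09, adjusted p = 1.67e-10). The neighbours nearest to IGF2R did not pass the test (MRPL18 at 0.06 and LOC729603 at 0.36).

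Beside MEST, COPG2, which encodes a coatomer subunit and overlaps the end of MEST on the opposite strand, fell from 440.4 ± 15.4 to 279 ± 4.58 normalized reads (log2 fold change -0.66, SE 0.08, adjusted p = 3.82e-07). The nearest tested gene on the other side, TSGA14, had a log2 fold change of 0.03 (adjusted p = 0.758). Beside NNAT, BLCAP rose from 976 ± 89.2 to 1339 ± 37.2 normalized reads (0.46, adjusted p = 2.33e-06), and the oncogene SRC rose as well (0.34, adjusted p = 7.87e-06). The locus of NNAT was therefore expressed on its other strand while NNAT was not detected.

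The nearest neighbours of PEG10 and SGCE did not pass the test (CASD1 at 0.09 and PPP1R9A at 0.04). Beside PLAGL1, LTV1 fell slightly (-0.12, adjusted p = 0.0470, with overlap of the groups) and HYMAI, at 0.22, did not pass the test. Beside GRB10, the dopa decarboxylase gene DDC rose (0.21, adjusted p = 2.87e-04) and COBL, at 0.02, did not pass. Beside GNAS, the antisense gene GNAS-AS1 had 20.8 normalized reads in the control and 18.9 in the PELP1-KD libraries and a log2 fold change of -0.15 (SE 0.33, adjusted p = 0.728), and TH1L was at -0.01.

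**Figure D4:**
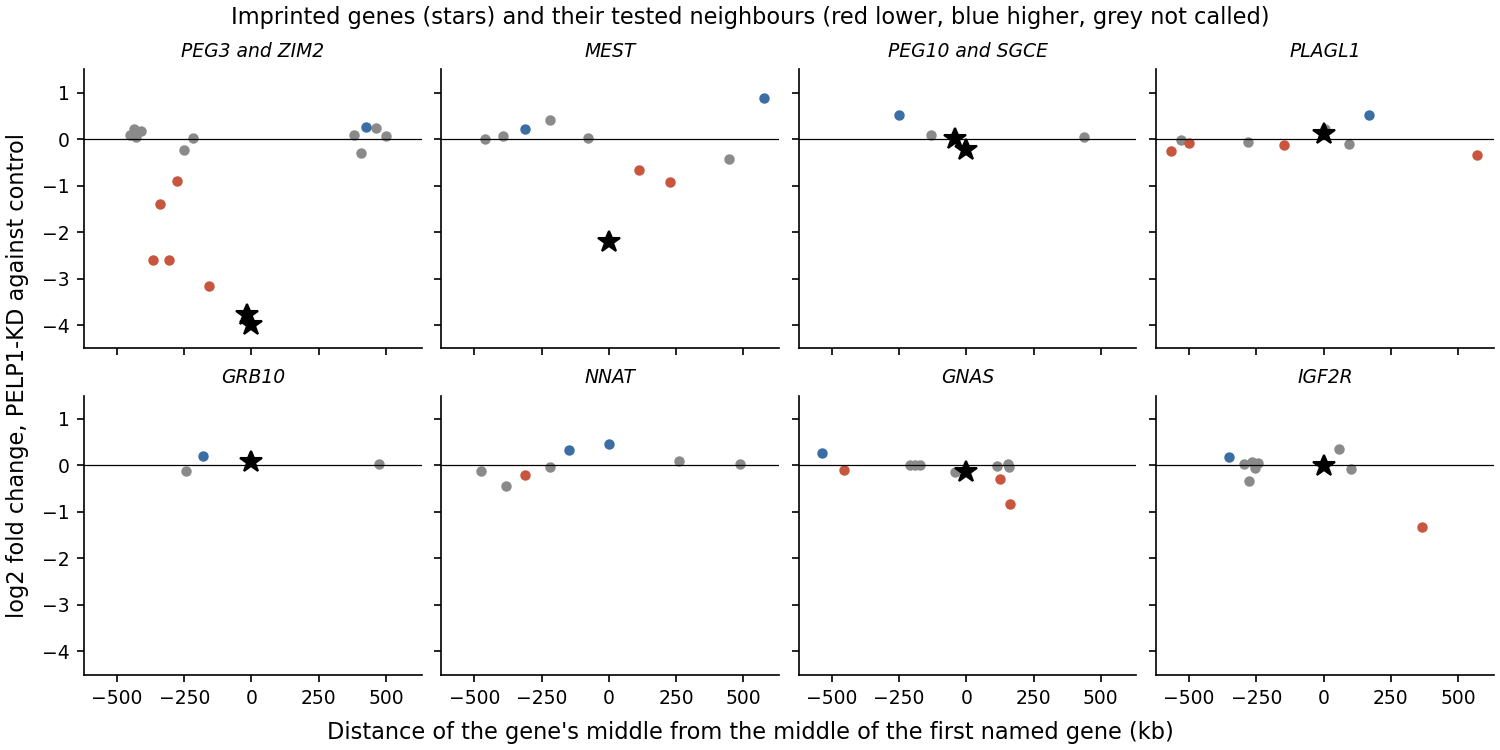
Log2 fold change of the tested genes within 500 kb of each imprinted gene, against the distance in kb between the middles of the genes. Stars are the imprinted genes, red points were called lower, blue points higher and grey points neither. At PEG3 and ZIM2 the 5 red points lie on 1 side only, and NNAT itself has no star because it had 0 reads.

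Lists of genes that work with, resemble or share the imprinting of the 10 genes were described by their counts. Each count stands against the background of all tested genes, of which 26.7% were lower, 26.8% higher, 4.79% lower by at least 2-fold and 2.85% higher by at least 2-fold, and a share near these is no result about a list. Of 40 other imprinted genes in the tables, 24 were tested, 7 were lower, 7 were higher, and the median log2 fold change was -0.09. The 3 that fell by at least 2-fold were SLC22A3, SMOC1 (668 to 304 normalized reads, -1.13) and NAP1L5 (24.9 to 7.05, -1.80), the last picked once its values were known. ZNF331, a zinc finger gene, fell as well (-0.82). TFPI2, which encodes a protease inhibitor, rose from 283 to 533 normalized reads (0.91, adjusted p = 1.92e-08), and INPP5F and BLCAP rose too (0.60 and 0.46). The numbers lower and higher are near the background of 26.7% and 26.8%.

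The relatives of PEG10 that also derive from retrotransposon gag genes had 5 of 9 tested members lower, where the background is 26.7%, and 0 higher, where it is 26.8%. Of the 9, 3 were lower by at least 2-fold (background 4.79%), and the median was -0.55. LDOC1L fell from 447 to 47.2 normalized reads (log2 fold change -3.25, SE 0.12, adjusted p = 9.77e-15) and PNMA3 from 291 to 51.3 (-2.50, SE 0.14, adjusted p = 6.92e-12). PNMAL1 fell from 50.5 to 12.7 (-1.98) and FAM127C from 479 to 326 (-0.55), both picked once their values were known, and LDOC1 fell by 0.58 on the log2 scale. FAM127A, FAM127B, PNMA1 and MOAP1 did not pass the test and lay between -0.00 and 0.15. Genes of the FAM127 family are close copies of each other, and their values may be uncertain, since reads that matched several places were kept in the counts.

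Of 6 reported partners of PEG3, 2 fell (background 26.7%) and 2 rose (background 26.8%). TFEB, a transcription factor for lysosome and autophagy genes, fell from 454 to 93.9 normalized reads (-2.27, SE 0.09, adjusted p = 6.57e-14), and SIAH2, a ubiquitin ligase, fell from 744 to 389 (-0.93). CTNNB1, which encodes beta-catenin, and BECN1, which encodes the autophagy protein beclin 1, rose by less (0.24 and 0.16).

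Of the 8 tested relatives and reported targets of PLAGL1, 4 rose (background 26.8%) and 0 fell (background 26.7%), with a median of 0.13. PLAGL2, its closest relative, rose from 5288 to 6708 normalized reads (0.34, adjusted p = 8.51e-08), TCF4 rose by 0.50 and SOCS3 by 0.27. Of the 16 tested genes of the sarcoglycan and dystroglycan complex, to which SGCE belongs, 3 fell (background 26.7%) and 2 rose (background 26.8%). SSPN, which encodes sarcospan, fell from 131 to 48.4 (-1.44), UTRN fell by 0.34 and DTNA by 0.12 on the log2 scale, and DMD and POMT2 rose (0.26 and 0.37). The count of those that rose was 4 without PELP1-KD replicate 1 and 4 without control replicate 3. Of the 3 tested calcium pump genes that bear on NNAT, ATP2A2 fell slightly (-0.10, adjusted p = 0.00731).

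Of the 24 tested genes of insulin and IGF receptor signalling, in which GRB10 acts, 6 fell and 7 rose, near the background of 26.7% and 26.8%, with a median of 0.00. INSR, the insulin receptor, rose from 4704 to 6658 normalized reads (0.50, adjusted p = 5.69e-10), and SOS1, an exchange factor for RAS, rose from 1754 to 4877 (1.47, adjusted p = 1.23e-15). GIGYF1, which encodes a GRB10-binding protein, rose too (0.36). GRB7, a close relative of GRB10, fell from 227 to 69.1 (-1.71, adjusted p = 5.12e-09), the adaptor SHC1 fell from 6093 to 4495 (-0.44), and PIK3R2, a regulatory subunit of PI3 kinase, fell from 7101 to 4755 (-0.58).

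Of the 33 tested genes of Gs and cAMP signalling, in which GNAS acts, 14 fell (background 26.7%) and 7 rose (background 26.8%), with a median of -0.09. The catalytic subunit gene PRKACA fell from 3480 to 2747 normalized reads (-0.34, adjusted p = 2.81e-06), while the regulatory subunit genes PRKAR1A (10424 to 14430, 0.47) and PRKAR2B (356 to 601, 0.75) rose. PDE3B fell and PDE8A rose (-0.35 and 0.35), both encoding phosphodiesterases that break down cyclic nucleotides. The 2 genes that fell by at least 2-fold were RAPGEF4, a cAMP sensor (-1.13), and the adenylyl cyclase gene ADCY1 (-1.03), the latter picked once its values were known. The number was 1 without control replicate 1.

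Of 35 tested genes for the mannose 6-phosphate pathway and the enzymes that IGF2R carries, 11 fell (background 26.7%) and 14 rose (background 26.8%), with a median of 0.05. M6PR, the smaller receptor of the pair, rose from 4444 to 6025 normalized reads (0.44, adjusted p = 3.38e-09). The enzyme genes IDS (691 to 1615, 1.22) and CTSL1 (2724 to 4067, 0.58) rose, whereas ARSB (-0.49), PPT1 (-0.47) and CTSZ (-0.29) fell. The number that fell was 7 without control replicate 3.

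**Figure D5:**
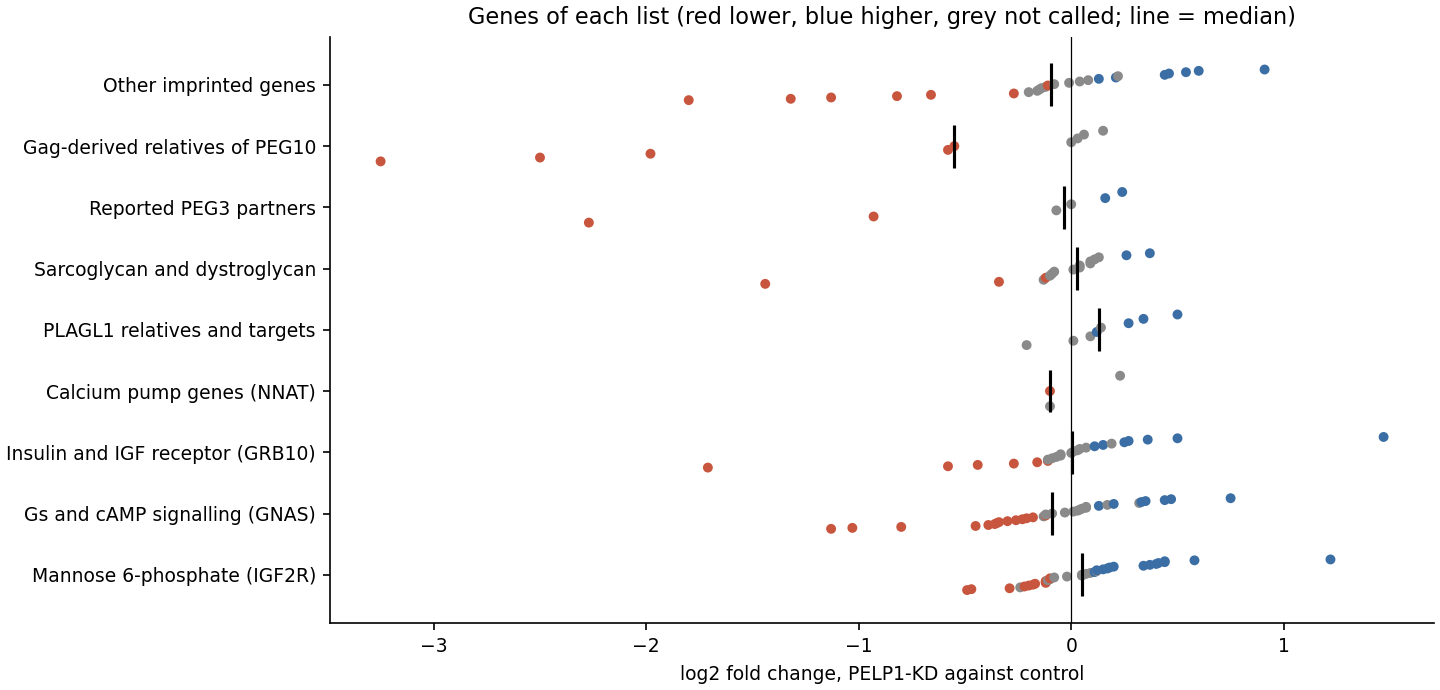
Log2 fold change of the tested genes of each list, with the median as a line. Red points were called lower, blue points higher and grey points neither. The gag-derived genes have a median of -0.55, and the other medians lie between -0.10 and 0.13.

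The genes whose log2 levels were most like those of PEG3 over the 6 libraries were STK16, VASN and NOTCH1, with a Pearson r of 0.9997, 0.9989 and 0.9987. For MEST they were NAT8L, SNURF and SNRPN (0.9997 each), of which the last pair are imprinted genes of another locus that share reads. For ZIM2 they included PPAPDC2 and ADNP (0.9976 and 0.9966). These correlations follow the difference between the groups, and 1174 of 10290 genes reached 0.95 with PEG3, 1357 of 10289 with MEST and 886 of 10290 with ZIM2. They are given as a description.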

How the data were processed

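RNA-seq of Hep3B cells was analysed in 3 control and 3 PELP1-KD libraries, grouped by their labels. The authors deposited estimated counts per gene, 1 table per library, without normalization. By the file headers they come from featureCounts on hg19 gene models, stranded, at mapping quality 2 or more. Reads with several matches or overlapping several genes were kept, and fractions were allowed. The submitters' processing notes name HISAT2 and featureCounts, and the paper's methods name TopHat2 and HTSeq. The labels describe a ribosomal RNA depletion kit and paired ends, whereas the series design describes a stranded mRNA kit and single reads. Which was used is not settled here.

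Counts were rounded to whole numbers. Genes that passed filterByExpr (14537 of 23228) were fitted with edgeR 4.0.16 in R 4.3.3 (glmQLFit with robust estimation, glmQLFTest, TMM), Benjamini-Hochberg adjustment across all of these genes, a threshold of 0.05 and, separately, a 2-fold change. The standard error is the log2 fold change over the root of the F statistic, and 95% intervals use 4 degrees of freedom. The median standard error was 0.0632 on the log2 scale. To normalize, each library's reads were scaled by TMM to the geometric mean of the effective library sizes. Floors of 3 reads cover counting error only. Ratios within a library were compared by a two-sided exact permutation test. The edgeR and DESeq2 fits were tested on simulated counts with known fold changes.

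Deviations from the group mean over 6397 genes with a log2 CPM above 5 had correlations across genes of 0.333, 0.242 and 0.665 for libraries with the same replicate number, so the numbers were taken to pair the libraries. Control replicate 2 with PELP1-KD replicate 1 had 0.419. Replicates of a group differed by more than sampling noise.

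The genes and lists were chosen with earlier results of these data known. Named genes are PELP1, the 10 imprinted genes, up to 3 called genes with the smallest p per list and direction, the nearest tested neighbour on each side and neighbours past both thresholds, and the 3 genes (log2 CPM above 3) most correlated with each of the 10 past both thresholds. A few items under these rules are not reported here. Alternatives were DESeq2 1.42.0, its size factors or upper-quartile scaling in edgeR, no filter, at least 10 reads in every library, the replicate block, a 1 Mb window and each library left out in turn.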

Additional observations from a re-analysis of the deposited data

How the results depend on the processing

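The 5 genes called lower kept their direction and their call in all 59 alternative fits that gave a value. ZIM2 has no value with at least 10 reads in every library, since that filter removes it. SGCE, close to 0 throughout, changed sign to 0.0006 with no filter on low counts and lay between -0.03 and 0.02 when a library was left out. The replicate block pairs the libraries by number, which was borne out for replicate 3 only. With it GRB10 was called higher (0.08, adjusted p = 0.0325), so that the number of the 10 genes called higher became 1. PELP1 was called lower in that fit (adjusted p = 0.0106), and no other call of the 10 genes changed. PELP1 was also called lower without PELP1-KD replicate 3 (-0.10, adjusted p = 0.0179). Neighbours within 1 Mb numbered 27 lower, 31 higher, 9 lower by at least 2-fold and 1 higher by at least 2-fold, of 129 tested. With at least 10 reads in every library 2 neighbours were lower by at least 2-fold, and with no filter 1 was higher by at least 2-fold. List genes higher by at least 2-fold numbered 4 with no filter, beside 2 of 158, and between 2 and 4 when a library was left out. Depth limits ZIM2 (11 reads over the PELP1-KD libraries), NNAT and most neighbours of PEG3.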
